A study of Homo sapiens with 238 samples.

Results

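The genes described here are 5 genes of gas, water and urea exchange across the red cell membrane, CA1, CA2, AQP1, AQP3 and SLC14A1, out of 62696 genes counted by RNA-seq in 62 libraries of K562 cells. They were taken by name, through their Ensembl identifiers. CA1 was present at moderate levels and was higher than in the unedited parent in most edited lines, by up to 14.1-fold. CA2 was low in every line but αRes4, at 1.91 CPM at most. AQP1 and AQP3 differed most between the α-globin and β-globin series and after deletion of the HS3 enhancer, and SLC14A1 was almost not expressed.

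Carbonic anhydrases convert carbon dioxide and water to bicarbonate and a proton, and this reaction lets red cells carry carbon dioxide from tissue to lung. CA1 and CA2 are the cytosolic enzymes of the red cell: CA1 is among its most abundant soluble proteins after haemoglobin, and CA2 is the faster enzyme. AQP1 is the main water channel of the red cell membrane and carries the Colton blood group, AQP3 is an aquaglyceroporin that also passes glycerol and carries the GIL blood group, and SLC14A1 is the urea transporter UT-B, which carries the Kidd blood group. Bicarbonate leaves the red cell through the anion exchanger band 3, the product of SLC4A1.

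K562 is a human erythroleukaemia line that expresses embryonic and foetal globins and can be pushed towards erythroid or megakaryocytic fates. The study asked what G-quadruplexes (G4s), folded structures of guanine-rich DNA, do in globin enhancers. In the α series, αMut1 and αMut2 carried base changes that remove the G4 of the α-globin enhancer HS-40, αRes1 to αRes4 were made from αMut1 by placing a G4 of another sequence at that site, and αWT was unedited. In the β series, βMut1 and βMut2 carried changes in the G4 of the β-globin enhancer HS2, βMut-HS3Δ had the changed HS2 G4 together with a deletion of the neighbouring enhancer HS3, WT-HS3Δ had the HS3 deletion alone, and βWT was unedited. The α series held 7, 4, 8, 8, 4, 4 and 8 libraries of αMut1, αMut2, αRes1, αRes2, αRes3, αRes4 and αWT, 43 in all. The β series held 4, 4, 3, 4 and 4 libraries of βMut1, βMut2, βMut-HS3Δ, WT-HS3Δ and βWT, 19 in all. All cells grew in the same medium with no inducer of differentiation. Each edited line was a CRISPR-Cas9 clone grown from an individual cell, so that the edit and the clone cannot be told apart. Replicates were given only by a number, so p-values measure the spread between these libraries, which may be technical.

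Library totals lay between 4270215 and 48671570 counts, with a median of 27764236. The shallowest was αRes2 replicate 3. Of the 62 libraries, 46 had at most 1 count over the pseudoautosomal genes and 16 had at least 7225, namely αRes3, αRes4 and replicates 5 to 8 of αRes1 and αRes2, so that 2 alignment references appear to have been used, and no member lies in that region. The 8 erythroid marker genes were detected in every line, and their summed level lay between 1580 and 3180 counts per 1000000 library counts (CPM). The megakaryocyte marker PF4 was at 0 in every library, but other megakaryocyte markers were detected. The 9 markers of this list summed to between 14.1 CPM, in WT-HS3Δ, and 186 CPM, in αRes4. TUBB1 had line means of 10.2 to 133 CPM.

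CA1 lies on chromosome 8 from 85327608 to 85379014 on the minus strand, and CA2 on the same chromosome from 85463968 to 85481493 on the plus strand (hg38, GENCODE 44). AQP1 lies on chromosome 7 from 30911853 to 30925517 on the plus strand, AQP3 on chromosome 9 from 33441156 to 33447596 on the minus strand, and SLC14A1 on chromosome 18 from 45687025 to 45752520 on the plus strand. All 5 are protein-coding genes. CA1 overlaps CA3, CA2 overlaps CA3-AS1 and SLC14A1 overlaps ENSG00000288545, each on the opposite strand and with 0 shared exon bases. AQP1 shares 910 of its 3261 exon bases with the same-strand gene ENSG00000250424, which had 50 counts over all libraries against 35705 for AQP1. The strand setting of the counting was not stated, so reads of an overlapping antisense transcript could not be told apart from reads of the gene.

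Levels between genes were compared per length, as RPKM, which is CPM divided by the exon length in kilobases. In αWT, AQP3 had 17.9 RPKM, AQP1 7.75, CA1 3.35, CA2 0.176 and SLC14A1 0.00896. In βWT, AQP3 had 6.35 RPKM, CA1 2.19, AQP1 0.548, CA2 0.28 and SLC14A1 0.0222. AQP3 was thus the most abundant member in both unedited lines, and the order of AQP1 and CA1 differed between them. In αRes3 CA1 came first with 47.0 RPKM, ahead of AQP3 with 25.6 and AQP1 with 21.9. All other levels are CPM, which were scaled by TMM (trimmed mean of M-values) over all libraries, and are compared only within a gene.

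The line means of CA2 spanned a ratio of 166 between αRes4 and αMut2, those of AQP1 43.3 between αRes3 and βMut1, those of CA1 21.4 between αRes3 and βWT and those of AQP3 6.77 between WT-HS3Δ and βMut1. In the order of the 12 lines by level, the ranges of neighbouring lines were apart at 3 of the 11 steps for CA1, 2 for CA2, 6 for AQP1 and 3 for AQP3. At the other steps neighbours overlapped. For CA1 the steps with no overlap were αRes3 above αRes4, βMut-HS3Δ above βMut1, and WT-HS3Δ above αMut2. For CA2 only αRes4 at the top and αMut2 at the bottom stood apart from their neighbours.

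Differences between lines were tested with the quasi-likelihood test of edgeR across all genes that averaged 10 or more counts over the libraries of the series. A gene was called where the Benjamini-Hochberg adjusted p was below 0.05 and the absolute log2 change above 0.5. CA1, CA2, AQP1 and AQP3 were tested in both series, and SLC14A1 was not, with averages of 1.42 (α) and 3.95 counts (β) per library. CA2 also passed the filter of the α series without αRes4, with a mean of 15.2 counts in the other libraries. Comparisons within a series used the same unedited libraries and are therefore not independent of each other. In bulk RNA, fewer cells that express a gene and less RNA per cell cannot be told apart.

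Of the 4 tested members, 2 were called in αMut1 over αWT, where 22.8% of all tested genes were called, 2 in αMut2 over αWT (16.1% of all genes), 3 in αRes1 over αWT (20.4%), 2 in αRes2 over αWT (18.7%), 3 in αRes3 over αWT (39%) and 2 in αRes4 over αWT (40.5%). In the β series, 2 were called in βMut1 over βWT (20.3% of all genes), 3 in βMut2 over βWT (28.7%), 4 in WT-HS3Δ over βWT (50.2%) and 4 in βMut-HS3Δ over βWT (48.1%). With so many genes called in each clone, the size of a change and the values of each library say more about the members than the number called.

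CA1 rose in αMut1, in each αRes clone and in the 4 edited β lines, and was not called in αMut2. In αRes3 it had 193, 185, 177 and 209 CPM, against a lowest, median and highest of 10.1, 13.7 and 17.4 CPM in αWT. Every αRes3 library was thus far above every library of any other line, and the log2 change was 3.82 ± 0.17 (SE, adjusted p = 1.00e-21, edgeR). In αRes4 it had 48.0, 50.3, 47.3 and 49.0 CPM, all above αWT, a log2 change of 1.85 ± 0.16 (adjusted p = 2.91e-12).

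The other α lines were closer to the parent. In αRes1 the lowest, median and highest CA1 levels were 31.4, 36.3 and 41.8 CPM, and in αRes2 they were 25.5, 34.5 and 56.3 CPM. Both clones lay wholly above αWT, with log2 changes of 1.40 ± 0.14 (adjusted p = 2.34e-10, edgeR) and 1.42 ± 0.14 (adjusted p = 2.56e-10). In αMut1, the clone they were made from, CA1 had 20.0, 27.1 and 38.2 CPM as lowest, median and highest, again above every αWT library (log2 change 1.10 ± 0.15, adjusted p = 6.93e-08). In αMut2, which carries the same kind of edit, CA1 had 8.02, 9.88, 11.5 and 12.1 CPM and overlapped αWT. Its log2 change was -0.39 ± 0.18 (adjusted p = 0.0987).

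In the β series the libraries of a line were close together for CA1. It had 16.0, 16.6, 18.5 and 17.8 CPM in βMut1, against 8.41, 9.38, 9.06 and 8.83 CPM in βWT, with no overlap and a log2 change of 0.97 ± 0.07 (adjusted p = 8.44e-09, edgeR). The 4 βMut2 libraries lay between 16.8 and 17.2 CPM, a change of 0.93 ± 0.07 (adjusted p = 4.01e-09). The 4 WT-HS3Δ libraries had 13.2, 12.4, 13.1 and 12.5 CPM, also above every βWT library (0.57 ± 0.07, adjusted p = 5.91e-07). With upper-quartile scaling this change was 0.45, below the size threshold. The 3 βMut-HS3Δ libraries had 18.7, 18.9 and 21.8 CPM, a change of 1.16 ± 0.07 (adjusted p = 7.44e-11).

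**Figure D1:**
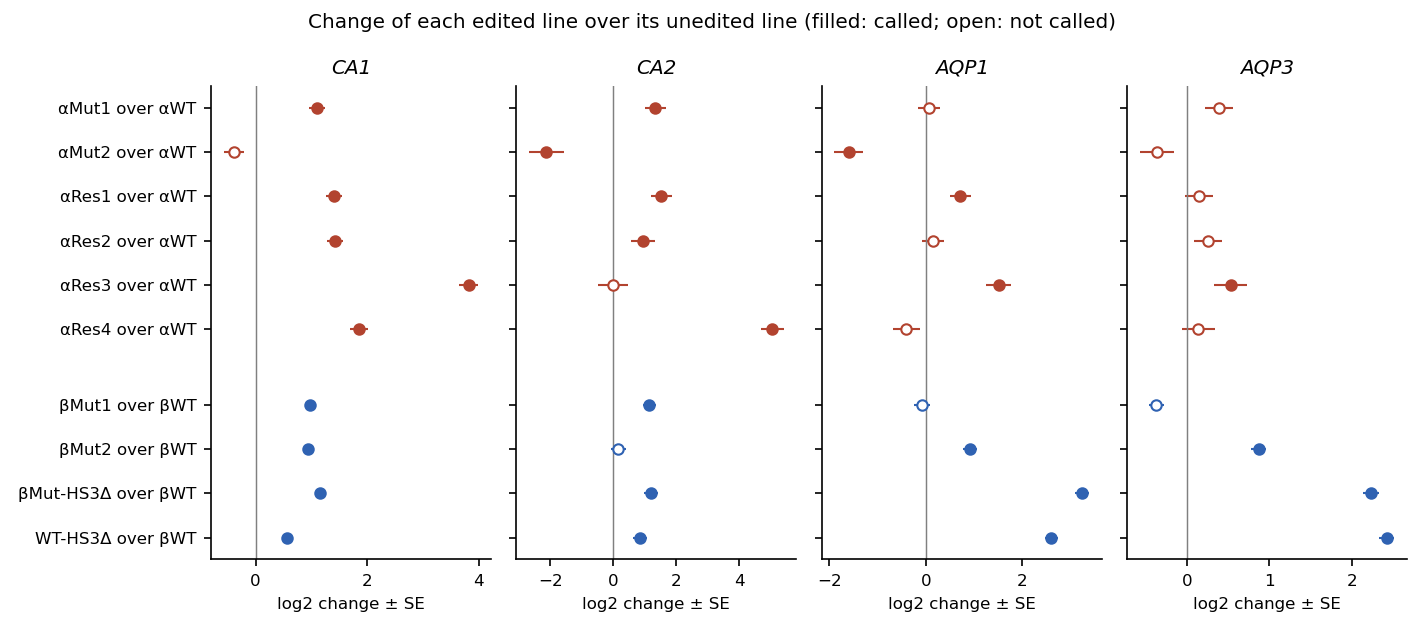
Log2 change of CA1, CA2, AQP1 and AQP3 in each edited line over the unedited line of its series, from the edgeR fit. Points are estimates, bars are ± 1 standard error and filled points passed both thresholds. CA1 in αRes3 (3.82), CA2 in αRes4 (5.06) and AQP1 in βMut-HS3Δ (3.24) had the farthest shifts to the right for their genes.

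CA2 rose in αRes4 and stayed below 2 CPM in every library of the other lines. It had 13.4, 11.8, 10.6 and 12.2 CPM in αRes4, against a lowest, median and highest of 0.19, 0.33 and 0.617 CPM in αWT. The αRes4 libraries held 219 to 288 CA2 counts each, and the αWT libraries 6 to 24. The log2 change was 5.06 ± 0.36 (SE, adjusted p = 7.40e-15, edgeR), a fold of 33.3. The pattern of the pair of neighbouring genes was thus different in the clones: αRes3 had the highest CA1 and a CA2 level of 0.302, 0.412, 0.422 and 0.243 CPM, within the αWT range (log2 change -0.02 ± 0.48, adjusted p = 0.972).

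At the low end, αMut2 had 3, 0, 6 and 3 CA2 counts in its 4 libraries, 12 in all, or 0.083, 0, 0.131 and 0.0745 CPM. Each was below the lowest αWT library, with a log2 change of -2.13 ± 0.55 (adjusted p = 0.00394, edgeR). Over the αMut2 and αWT libraries alone CA2 did not reach the count filter, so that this test rests on its higher counts in other α lines, and with no filter the change was -2.12 (adjusted p = 0.00494). In αMut1 CA2 had 0.538, 0.794 and 1.46 CPM as lowest, median and highest (1.34 ± 0.34, adjusted p = 0.00163), and 6 of its 7 libraries lay above the highest αWT library. In αRes1 the same values were 0.28, 1.06 and 1.91 CPM (1.53 ± 0.34, adjusted p = 3.68e-04), a wide range that overlapped αWT. In αRes2 they were 0.456, 0.593 and 1.66 CPM (0.94 ± 0.37, adjusted p = 0.0394), with overlap. This last call did not hold when αRes2 replicate 3, 4 or 7 or αWT replicate 1, 2, 4, 5 or 7 was left out (0.83 to 0.95, adjusted p = 0.0501 to 0.0849), nor with no filter (0.89, adjusted p = 0.0751). Without αRes2 replicate 3, the shallowest library with 7 CA2 counts, the change was 0.83 (adjusted p = 0.0729).

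In the β series CA2 had 1.26, 1.19, 1.27 and 1.23 CPM in βMut1, against 0.553, 0.464, 0.738 and 0.495 CPM in βWT. The lines did not overlap, and the log2 change was 1.15 ± 0.22 (adjusted p = 7.04e-04, edgeR). CA2 also rose in WT-HS3Δ, which had 0.708, 1.24, 1.09 and 0.91 CPM (0.85 ± 0.22, adjusted p = 0.00248), and in βMut-HS3Δ, which had 0.833, 1.32 and 1.69 CPM (1.19 ± 0.23, adjusted p = 1.64e-04). The lowest WT-HS3Δ library lay inside the βWT range, and every βMut-HS3Δ library above it. In βMut2 the values were 0.59, 0.706, 0.682 and 0.544 CPM and overlapped βWT (0.16, 95% interval -0.32 to 0.64, adjusted p = 0.589). All these levels rest on 13 to 59 counts a library.

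CA3, the muscle carbonic anhydrase, has its start 5578 bases from that of CA1 on the opposite strand and was the nearest tested gene on that side of CA1 in the α series. It averaged 15.0 ± 1.56 CPM in αRes3 and 0.15 ± 0.0784 CPM in αWT (SD, n = 4 and 8), a log2 change of 6.60 ± 0.29 with an adjusted p of 1.83e-21 (edgeR). CA3 was also called higher in αMut1 (mean 0.699 CPM, adjusted p = 7.79e-08), and with log2 changes of 2.78 in αRes1, 2.23 in αRes2 and 3.25 in αRes4, and in αMut2 it had 0.128 CPM (log2 change -0.24, adjusted p = 0.715). Of the α lines, αRes3 thus held the highest level of both CA1 and CA3. CA3 had 1919 counts over all libraries, against 49705 for CA1, and shares 0 exon bases with it. With the strand setting not stated, transcription of 1 gene that runs through the other was not separated from transcription of that gene itself.

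CA13, a cytosolic carbonic anhydrase of the same gene cluster, had its own order. It averaged 9.18 CPM in βMut1 and 3.43 CPM in βWT (log2 change 1.44, adjusted p = 2.62e-08, edgeR), and 0.872 CPM in WT-HS3Δ (-1.93, adjusted p = 5.01e-10), the line in which CA1 was higher than in βWT. In αRes4, where CA2 was highest, CA13 averaged 6.67 CPM against 2.98 CPM in αWT (1.17, adjusted p = 1.63e-04). On the other side of CA1, the nearest tested gene that is not a member was ENSG00000253154, whose start is 454363 bases away, beyond CA2. It fell by 4.02 on the log2 scale in αRes3. Within 10 Mb of CA1, 11 of 84 tested genes were called higher and 41 lower in αRes3 over αWT (39% of all genes called). Their median log2 change was -0.57, against -0.041 over all genes. In WT-HS3Δ over βWT (50.2% of all genes called), 7 of 82 were called higher and 41 lower. Their median was -0.51, against -0.029 over all genes. CA1 was thus higher in both lines while its neighbours were more often lower than higher.

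**Figure D2:**
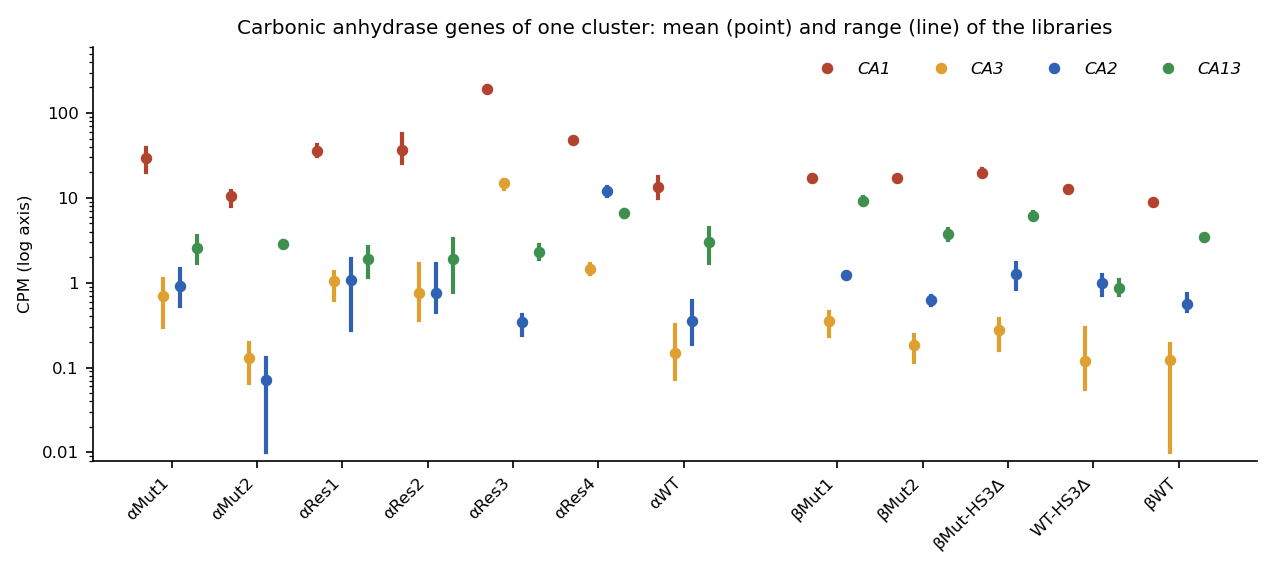
Levels of the 4 cytosolic carbonic anhydrases CA1, CA2, CA3 and CA13 in the 12 lines, in CPM on a log axis. Points are line means and bars run over the libraries of a line, and a range that reaches 0 is drawn to the bottom of the axis. CA1 and CA3 peaked in αRes3 (191 and 15.0 CPM), CA2 in αRes4 (12.0 CPM) and CA13 in βMut1 (9.18 CPM).

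The αRes clones were also set against αMut1, their parent clone. None of the 4 tested members was called in αRes1 over αMut1 (2.96% of all genes called) or in αRes2 over αMut1 (8.96%), by edgeR and by DESeq2, with 2 and 1 members at an unadjusted edgeR p under 0.05. In αRes1 these were CA1 (log2 change 0.30, adjusted p = 0.249) and AQP1 (0.64, adjusted p = 0.102), and in αRes2 it was CA1 (0.32, adjusted p = 0.13). These pooled values average over replicates 1 to 4 and 5 to 8, between which αMut1 and the clones differed, as the levels of AQP1 and AQP3 by replicate show. Among replicates 1 to 4 alone, αRes1 over αMut1 had AQP1 higher by 1.60 (adjusted p = 8.24e-18, edgeR) and CA2 lower by -0.94 (adjusted p = 0.00634), where 29.5% of all genes were called. Among replicates 5 to 8 alone, it had CA2 higher by 0.58 (adjusted p = 0.0244) and AQP3 lower by -0.94 (adjusted p = 3.14e-11), with 22% of all genes called. In αRes2 over αMut1, CA1 was higher by 0.92 among replicates 1 to 4 (adjusted p = 3.17e-08, 17.3% of all genes), and CA2 and AQP3 were lower among replicates 5 to 8, by -1.04 (adjusted p = 0.00529) and -0.68 (adjusted p = 2.62e-08, 13.6% of all genes). Over all libraries, 3 members were called in αRes3 over αMut1 (20.6% of all genes) and 2 in αRes4 over αMut1 (32.5%). CA1 was higher in αRes3 by 2.71 ± 0.17 (adjusted p = 3.96e-16) and in αRes4 by 0.75 ± 0.17 (adjusted p = 4.30e-04). CA2 was higher in αRes4 by 3.72 ± 0.36 (adjusted p = 6.25e-11) and lower in αRes3 by -1.36 ± 0.47 (adjusted p = 0.0247), a call lost without αMut1 replicate 5 or αRes3 replicate 1 or 4 (-1.29 to -1.21, adjusted p = 0.0514 to 0.075). AQP1 was higher in αRes3 by 1.43 ± 0.27 (adjusted p = 6.52e-05), and by 2.33 against replicates 1 to 4 of αMut1 alone (adjusted p = 1.04e-21).

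The promoters of the water channels are shown because AQP1 and AQP3 had the largest changes of the 4 tested members in both lines with the HS3 deletion. They are RefSeq windows of GRCh38.p14, from 250 bases before to 50 bases after the gene start, on the strand of the gene, and capitals mark matches to CCNCNCCC, the motif of KLF factors, on either strand, with matches that overlap joined.
AQP1 (chr7:30911603-30911902, plus strand): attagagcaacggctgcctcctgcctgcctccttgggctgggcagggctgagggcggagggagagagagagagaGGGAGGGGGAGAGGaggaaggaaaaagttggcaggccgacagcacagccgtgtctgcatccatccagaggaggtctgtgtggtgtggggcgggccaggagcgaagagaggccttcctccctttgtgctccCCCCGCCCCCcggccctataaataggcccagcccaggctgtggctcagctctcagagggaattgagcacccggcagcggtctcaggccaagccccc
AQP3 (chr9:33447544-33447843, minus strand): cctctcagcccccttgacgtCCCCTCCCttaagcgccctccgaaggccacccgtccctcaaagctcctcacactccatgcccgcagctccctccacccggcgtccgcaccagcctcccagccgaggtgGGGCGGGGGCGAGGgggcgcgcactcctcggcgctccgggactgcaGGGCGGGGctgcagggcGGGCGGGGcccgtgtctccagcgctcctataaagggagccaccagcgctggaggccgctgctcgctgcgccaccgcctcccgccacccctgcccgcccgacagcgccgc
The AQP1 window held 4 matches to CCNCNCCC and the AQP3 window 5, and neither held AGATAA, the motif of GATA factors, or TGACTCA, the motif of NF-E2. Of 35116 promoter windows of this length, 56.2% held CCNCNCCC, 10.3% AGATAA and 4.95% TGACTCA. A match is a string of letters and not a measured site. The AQP3 window was richer in G and C (75.3%, with 31 CpG) than the AQP1 window (65.3%, with 10 CpG), and a G4 pattern, which 25% of all windows hold, occurred 3 times in the AQP3 window and 1 time in the AQP1 window.

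AQP1 and AQP3 rose in both lines with the HS3 deletion, by more than CA1 and CA2, which rose there as well. AQP1 had 10.1, 10.99, 9.66 and 10.96 CPM in WT-HS3Δ, against 2.21, 1.43, 1.91 and 1.60 CPM in βWT. The lines were far apart, with a log2 change of 2.60 ± 0.14 (SE, adjusted p = 5.75e-12, edgeR), a fold of 6.05. In βMut-HS3Δ AQP1 had 17.9, 16.5 and 16.0 CPM, above every library of the other β lines (3.24 ± 0.14 over βWT, adjusted p = 4.87e-13, a fold of 9.45).

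AQP3 had 96.7, 94.5, 98.3 and 92.7 CPM in WT-HS3Δ, against 19.7, 16.1, 19 and 19.1 CPM in βWT, a log2 change of 2.42 ± 0.09 (adjusted p = 5.34e-14, edgeR) and a fold of 5.36. In βMut-HS3Δ it had 90.4, 87.1 and 81.8 CPM (2.23 ± 0.10, adjusted p = 3.31e-13). The lines with the HS3 deletion held the highest AQP3 levels of all 12 lines. Of 7 kidney and epithelial markers, 4 were tested. In βMut-HS3Δ over βWT (48.1% of all genes called) 2 were called higher and 1 lower. In WT-HS3Δ over βWT (50.2% of all genes called) 3 were called higher and 0 lower. The 7 genes summed to 785 to 891 CPM in βMut-HS3Δ and 824 to 903 in WT-HS3Δ, against 583 to 625 in βWT. These sums were mostly KRT8, KRT18 and EPCAM, with UMOD and KRT5 at or near 0. CUBN averaged 0.277 CPM in βMut-HS3Δ and 0.313 CPM in WT-HS3Δ, against 0.479 CPM in βWT. The part of these markers in the result was not tested.

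**Figure D3:**
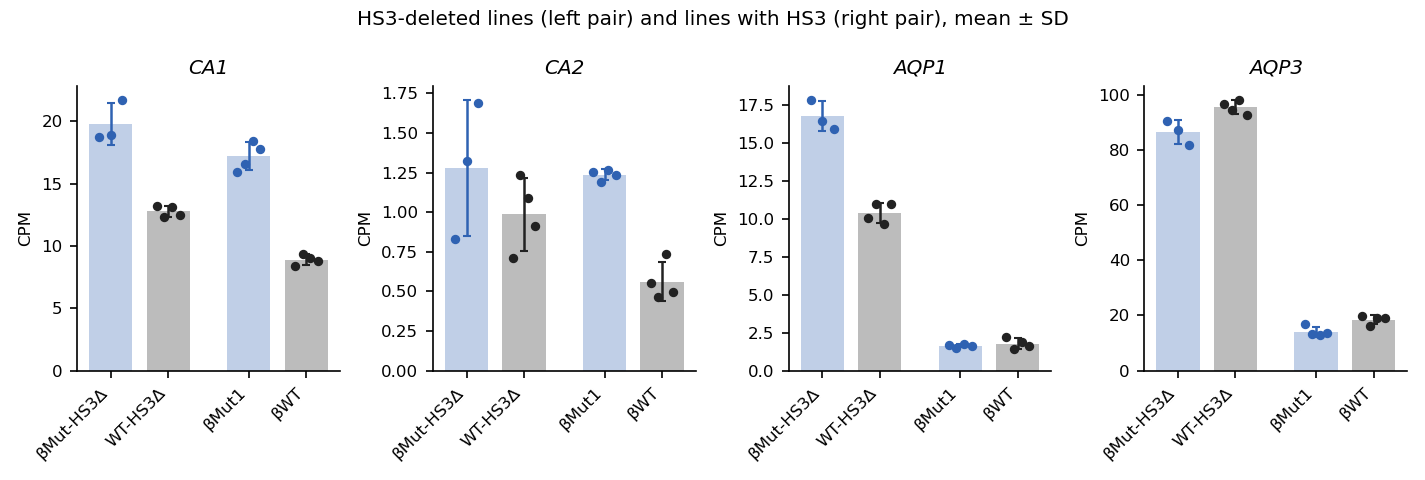
Levels of CA1, CA2, AQP1 and AQP3 in each library of βMut-HS3Δ, WT-HS3Δ, βMut1 and βWT, in CPM. Points are libraries, bars are line means and error bars are SD. AQP1 averaged 16.8 and 10.4 CPM with the HS3 deletion, in βMut-HS3Δ and WT-HS3Δ, against 1.65 and 1.79 CPM without it, in βMut1 and βWT.

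The clones with the HS2 change alone differed from each other. In βMut1 AQP1 had 1.70, 1.49, 1.79 and 1.63 CPM and overlapped βWT (log2 change -0.08, 95% interval -0.41 to 0.24, adjusted p = 0.696, edgeR). AQP3 had 16.9, 13.1, 12.9 and 13.5 CPM there, and its change of -0.37 ± 0.09 (adjusted p = 0.00463) was below the size threshold. With 1 library left out this change ranged from -0.50 to -0.33, and the number of members called in βMut1 reached 3. In βMut2, the second clone with this edit, AQP1 had 3.82, 3.85, 3.33 and 2.37 CPM, all above βWT (0.92 ± 0.15, adjusted p = 6.47e-05). AQP3 rose in βMut2 as well, to 38.2, 34.3, 30.9 and 31.0 CPM (0.87 ± 0.09, adjusted p = 3.58e-07). In βMut2 the 7 lymphoid markers summed to 76.5 to 103 CPM, against 26.5 to 35.5 CPM in βWT, mostly CD3D. Their part in the result was not tested.

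With the same HS2 edit, βMut-HS3Δ was also compared with βMut1, where 2 of 4 members were called (53% of all genes). AQP1 was higher by 3.32 ± 0.15 (adjusted p = 4.19e-13, edgeR) and AQP3 by 2.60 ± 0.10 (adjusted p = 5.06e-14). CA1 differed by 0.19 ± 0.07 (adjusted p = 0.0266), below the size threshold, and CA2 by 0.04 with a 95% interval of -0.36 to 0.44. Over WT-HS3Δ, 2 members were called in βMut-HS3Δ (16.3% of all genes), CA1 (0.58 ± 0.07, adjusted p = 4.19e-06) and AQP1 (0.64 ± 0.12, adjusted p = 6.33e-04). AQP3 differed by -0.19 ± 0.09 (adjusted p = 0.126) and CA2 by 0.34 ± 0.21 (adjusted p = 0.207).

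The interaction of the HS2 change and the HS3 deletion was tested on βMut-HS3Δ, WT-HS3Δ, βMut1 and βWT, and 1 of 4 members was called (12.1% of all genes). For AQP1 the effect of the HS2 change was larger with HS3 deleted than with HS3 present, by 0.73 ± 0.21 on the log2 scale (adjusted p = 0.0198, edgeR). For CA1 it was smaller with HS3 deleted, by -0.38 ± 0.10 (adjusted p = 0.0114), below the size threshold. For CA2 the interaction was -0.81 ± 0.31 (adjusted p = 0.0778) and for AQP3 0.18 ± 0.13 (adjusted p = 0.391). Only 1 clone stood for each combination.

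In the α series AQP1 fell in αMut2 and rose in αRes1 and αRes3. It had 8.19, 8.79, 8.63 and 8.00 CPM in αMut2, against a lowest, median and highest of 23.7, 25.2 and 27.2 CPM in αWT, with no overlap (log2 change -1.59 ± 0.30, adjusted p = 1.13e-04, edgeR). In αRes3 it had 72.9, 70.2, 69.4 and 73.0 CPM, all above the highest library of any other line (1.51 ± 0.26, adjusted p = 6.71e-06). In αRes1 the lowest, median and highest levels were 37.4, 40.8 and 46.2 CPM (0.72 ± 0.22, adjusted p = 0.00978), wholly above αWT. In αRes4 the libraries had 17.2, 17.9, 20.3 and 20.5 CPM and lay below αWT with no overlap, but the change of -0.40 ± 0.28 was not called (adjusted p = 0.222). The spread of the fit was set by all 7 lines, of which αMut1 and αRes2 varied widely for AQP1.

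AQP1 in αMut1 and αRes2 split by replicate number. In αMut1 replicates 1 to 4 had 13.5, 14.4, 13.7 and 14.9 CPM, and replicates 5 to 7 had 42.5, 44.7 and 42.5 CPM. In αRes2 replicates 1 to 4 had 17.6, 16.0, 12.3 and 17.1 CPM, and replicates 5 to 8 had 39.4, 38.5, 39.9 and 41.7 CPM. The αWT means were 24.9 ± 1.37 CPM in replicates 1 to 4 and 25.6 ± 1.36 CPM in replicates 5 to 8 (SD, n = 4 each), between the levels of the divided lines. The pooled changes of AQP1 over αWT, 0.07 in αMut1 (adjusted p = 0.825, edgeR) and 0.15 in αRes2 (adjusted p = 0.646), were thus averages of a lower and a higher set. Among replicates 1 to 4 alone, AQP1 differed from αWT by -0.81 in αMut1 (adjusted p = 3.34e-11) and by -0.60 in αRes2 (adjusted p = 4.91e-08). Among replicates 5 to 8 alone, it differed by 0.77 in αMut1 (adjusted p = 9.49e-11) and by 0.65 in αRes2 (adjusted p = 1.37e-09).

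AQP3 split in other lines, αWT included. Replicates 1 to 4 of αWT had 37.8, 38.4, 35.9 and 34.3 CPM and replicates 5 to 8 had 70.0, 67.5, 69.9 and 61.99 CPM. In αRes1 the order was the other way round, with 76.3, 81.6, 69.2 and 73.5 CPM in replicates 1 to 4 and 38.6, 42.8, 40.8 and 39.1 CPM in replicates 5 to 8. In αRes2 the means were 75.7 ± 2.08 and 48.4 ± 4.44 CPM (SD, n = 4 each) in the same order, and in αMut1 61.3 ± 3.4 and 77.4 ± 1.57 CPM (SD, n = 4 and 3).

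Against this spread AQP3 was called over αWT only in αRes3, at 81.1, 69.5, 76.8 and 70.8 CPM (0.53 ± 0.20, adjusted p = 0.0227, edgeR). The call was lost without αRes3 replicate 1 or 3 or αWT replicate 1, 2, 3 or 4, where the change was 0.46 to 0.52, and with no filter (0.47, adjusted p = 0.0581). The changes in αMut1 (0.39, adjusted p = 0.0608), αMut2 (-0.36, adjusted p = 0.202), αRes1 (0.15, adjusted p = 0.5), αRes2 (0.26, adjusted p = 0.22) and αRes4 (0.14, adjusted p = 0.553) were not called. Within replicates 1 to 4, AQP3 was 1.02 higher than αWT in αRes1 (adjusted p = 2.62e-13), 1.06 in αRes2 (adjusted p = 1.4e-13), 1.03 in αRes3 (adjusted p = 3.63e-14), 0.75 in αMut1 (adjusted p = 6.5e-11) and 0.65 in αRes4 (adjusted p = 9.3e-10), and in αMut2 it differed by 0.12 (adjusted p = 0.176). Within replicates 5 to 8 the same comparison gave -0.72 in αRes1 (adjusted p = 4.31e-10, edgeR), -0.46 in αRes2 (adjusted p = 1.16e-06) and 0.22 in αMut1 (adjusted p = 0.00416). For αRes3 and αRes4, which had only replicates 1 to 4, the match to replicates 1 to 4 of αWT rests on the number alone. Their pseudoautosomal counts were like those of replicates 5 to 8 of αRes1 and αRes2. AQP3 averaged 74.5 CPM in αRes3 and 56.9 CPM in αRes4. Replicates 1 to 4 and 5 to 8 of αWT averaged 36.6 and 67.3 CPM.

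**Figure D4:**
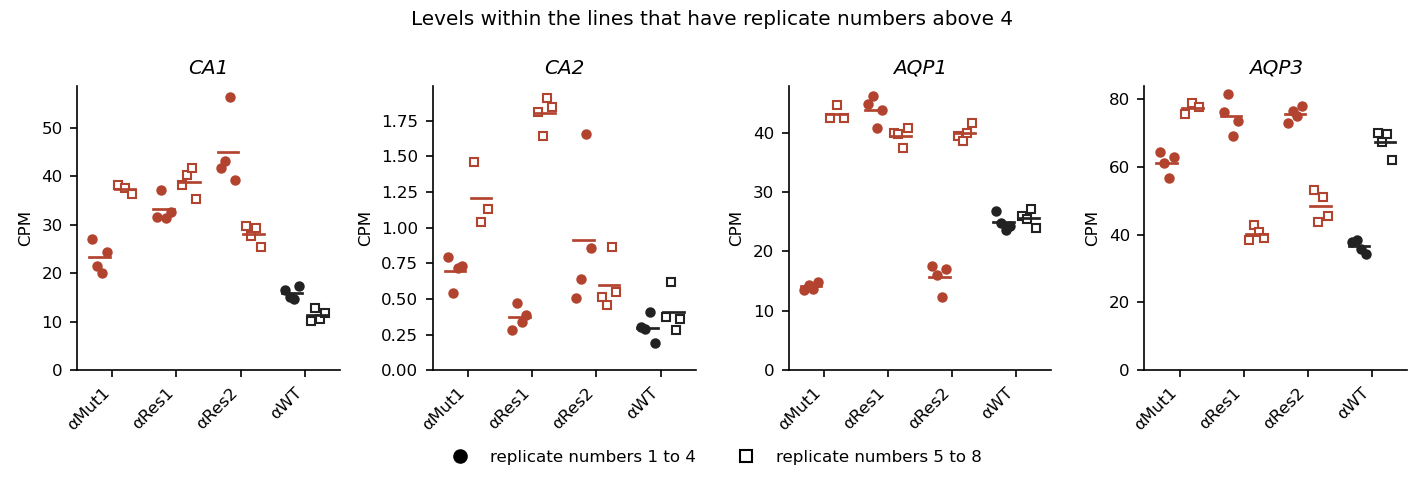
Levels of CA1, CA2, AQP1 and AQP3 in αMut1, αRes1, αRes2 and αWT, in CPM, with replicates 1 to 4 and replicates 5 to 8 drawn apart (5 to 7 for αMut1). Points are libraries and bars are means. AQP1 in αMut1 (14.1 and 43.2 CPM) and AQP3 in αWT (36.6 and 67.3 CPM) had no overlap between the sets.

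Whether an edited line's change over αWT differed between the sets was tested in a fit of its own, as the change in replicates 5 to 8 minus the change in replicates 1 to 4. Of the 4 members, 3 were called for αMut1 (29% of all genes), 3 for αRes1 (32.9%) and 2 for αRes2 (24.5%). For AQP1 the difference was 1.58 in αMut1 (adjusted p = 6.49e-15, edgeR) and 1.26 in αRes2 (adjusted p = 4.64e-12), and in αRes1 it was -0.18 (adjusted p = 0.0966). For AQP3 it was -0.53 in αMut1 (adjusted p = 1.99e-05), -1.77 in αRes1 (adjusted p = 3.18e-17) and -1.50 in αRes2 (adjusted p = 2.58e-14). The αMut1 call for AQP3 was lost without αMut1 replicate 1 (-0.50) or αWT replicate 4 (-0.49), at the size threshold.

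CA1 differed between the sets in the size of its change and not in its direction. It averaged 23.2 and 37.4 CPM in replicates 1 to 4 and 5 to 7 of αMut1, 33.2 and 38.9 CPM in the sets of αRes1, 45.1 and 28.1 CPM in those of αRes2, and 15.9 and 11.3 CPM in those of αWT. Its change over αWT was called in both sets for αMut1 (0.55 and 1.74), αRes1 (1.04 and 1.80) and αRes2 (1.47 and 1.33), with the difference called for αMut1 (1.19, adjusted p = 2.70e-08, edgeR) and αRes1 (0.73, adjusted p = 3.46e-05). For CA2 in αRes1, replicates 1 to 4 averaged 0.371 CPM and replicates 5 to 8 averaged 1.80 CPM, and the difference of 1.87 was called (adjusted p = 1.81e-04). Within replicates 1 to 4, CA2 in αRes1 differed from αWT by 0.23 (adjusted p = 0.648), and within replicates 5 to 8, CA2 in αRes2 differed by 0.50 (adjusted p = 0.176). Against replicates 1 to 4 of αWT, CA1 was lower in αMut2 by -0.63 (adjusted p = 3.34e-05), CA1 was higher in αRes3 by 3.59 and CA2 was higher in αRes4 by 5.29.

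The labels do not say what separates replicates 1 to 4 from 5 to 8. The sets of αMut1 and αWT shared the absence of pseudoautosomal counts, while those of αRes1 and αRes2 differed in it. Markers of other blood cells moved with the sets. The 7 granulocyte and monocyte markers summed to 51.8 to 55.8 CPM in replicates 5 to 7 and 179 to 208 CPM in replicates 1 to 4 of αMut1, and to 80.2 to 86.8 CPM in replicates 5 to 8 and 11 to 24.9 CPM in replicates 1 to 4 of αRes1. In αRes2 the sums were 62 to 66.2 and 72.6 to 86.3 CPM, and in αWT 37.1 to 44.8 and 49.9 to 55.3 CPM, for replicates 5 to 8 and 1 to 4. Of this list 2 genes were tested, LYZ and CSF3R, and both were lower in replicates 5 to 7 than in 1 to 4 of αMut1 (-1.87 and -1.50) and higher in replicates 5 to 8 of αRes1 (2.46 and 3.19). Of 4 tested megakaryocyte markers, 1 was called higher and 3 lower in replicates 5 to 7 of αMut1 (median -1.30), with sums of 95.1 to 106 CPM in replicates 5 to 7 and 108 to 115 CPM in replicates 1 to 4. Of 4 tested lymphoid markers, 0 were higher and 3 lower there (median -0.92), with sums of 10.8 to 12 and 22.7 to 27.4 CPM. In these comparisons of the sets 28.9% (αMut1) and 38.2% (αRes1) of all genes were called. The part of these markers in the split was not tested.

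The unedited lines were compared in a separate fit of their 12 libraries, and 3 of 4 members were called in αWT over βWT (48.1% of all genes). AQP1 was higher in αWT, at 23.7 to 27.2 CPM, than in βWT, at 1.43 to 2.21 CPM, by 3.83 ± 0.12 (adjusted p = 6.81e-12, edgeR), a fold of 14.2. AQP3 was higher by 1.50 ± 0.23 (adjusted p = 5.03e-05), with αWT at 34.3 to 70.0 CPM and βWT at 16.1 to 19.7 CPM. CA1 was higher by 0.61 ± 0.15 (adjusted p = 0.00192), with αWT at 10.1 to 17.4 CPM and βWT at 8.41 to 9.38 CPM. CA1 fell below the size threshold against replicates 5 to 8 of αWT alone (0.35, adjusted p = 0.00594). CA2 differed by -0.64 ± 0.27 (adjusted p = 0.0519). The lines of the α and β series thus did not start from the same levels of these genes, and a clone of 1 series was compared only with its own unedited line.

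SLC14A1 had 136 counts over the 62 libraries, with 15 libraries at 0 and 9 counts at most. Its highest line was βMut1, with 6, 9, 9 and 7 counts (mean 0.287 CPM), and βWT had 2, 4, 7 and 5 counts (mean 0.159 CPM). The ranges of these lines in CPM overlapped. In βMut2 it had 6 counts in 4 libraries, at 0 to 0.12 CPM, below each βMut1 library (0.233 to 0.336 CPM). No test was made, since the gene did not pass the count filter. In αMut2 a total of 1 count was found in 4 libraries, against 19 counts in the 8 libraries of αWT, each of which held at least 1. For αMut2, 3 counts over its libraries would be 0.0199 CPM, and its 1 count lies under that limit. SLC14A2, the other urea transporter gene, did not reach the count filter in either series.

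Over the 12 line means, on a log2 scale, AQP1 and AQP3 had a Pearson r of 0.81, CA1 and AQP1 0.70, CA1 and AQP3 0.42, CA1 and CA2 0.24, CA2 and AQP3 0.10 and CA2 and AQP1 0.01. These are descriptions over lines that all derive from K562, 4 of them from 1 edited clone. Among 16993 genes, those whose line means were most like CA1 were CMKLR1 (r = 0.942), CRYBG3 (0.934) and TINAGL1 (0.932). Those most like AQP1 were TMPPE (0.963), PPT2 (0.959) and NDST1 (0.958), and those most like AQP3 were C19orf25 (0.974), PPP1R14BP3 (0.963) and CTBP1-DT (0.963). For CA2 they were ENSG00000286380 (0.889), ENSG00000255931 (0.871) and ZNF525 (0.858).

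Around AQP1, 6 of 13 tested genes within 1 Mb were called higher and 0 lower in αRes3 over αWT (39% of all genes called). Their median log2 change was 0.55, against -0.041 over all genes. MINDY4, the nearest tested gene at lower coordinates, was among those called, higher by 2.12 (adjusted p = 1.10e-11, edgeR). In αMut1 over αWT (22.8% of all genes called), 7 of the 13 were called higher and 0 lower (median 0.56). AQP1 itself was not called there. In WT-HS3Δ over βWT (50.2% of all genes called), 0 of 11 were called higher and 7 lower. Their median was -0.64, against -0.029 over all genes, and AQP1 was higher by 2.60. Around AQP3, 13 of 33 genes within 1 Mb were called higher and 3 lower in WT-HS3Δ. These calls were close to the 50.2% of all genes called there. The median of the 33 genes was 0.22, against -0.029 over all genes. Those called higher included NFX1, the nearest at lower coordinates, by 0.75 (adjusted p = 3.46e-05, edgeR). They also included ENSG00000270542, whose start is 2159 bases from that of AQP3, by 1.71 (adjusted p = 9.60e-04).

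Of 13 other carbonic anhydrase genes, 6 were tested in each series. Over the unedited line, 2 were called higher and 0 lower in αMut1 (22.8% of all genes called), and 0 and 0 in αMut2 (16.1%). The numbers were 2 and 1 in αRes1 (20.4%), 1 and 1 in αRes2 (18.7%), 2 and 2 in αRes3 (39%) and 2 and 1 in αRes4 (40.5%). In the β series the numbers were 1 and 1 in βMut1 (20.3% of all genes called) and 1 and 1 in βMut2 (28.7%). They were 0 and 5 in WT-HS3Δ (50.2%) and 1 and 3 in βMut-HS3Δ (48.1%). The median log2 change was -1.51 in WT-HS3Δ, against -0.029 over all genes, and -0.83 in βMut-HS3Δ, against 0.003. CA9, a membrane-bound enzyme known as a target of the hypoxia response, had 0 counts in the 3 βMut-HS3Δ libraries and 1 count in the 4 WT-HS3Δ libraries, against 783 counts and 7.04 CPM in βWT. CA12, another membrane-bound enzyme, averaged 0.0947 CPM in βMut-HS3Δ and 0.422 CPM in WT-HS3Δ, against 1.78 CPM in βWT (log2 changes -4.14, adjusted p = 4.95e-10, and -2.02, adjusted p = 3.70e-08, edgeR). CA1 and CA2 were higher in both these lines. In αRes3 CA8, a family member without enzyme activity, fell by 1.03 (adjusted p = 8.24e-16) and the mitochondrial CA5B fell by 1.37 (adjusted p = 8.69e-11).

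Of 12 other aquaporins, 3 were tested in each series. AQP2, the vasopressin-regulated channel of the kidney collecting duct, was called higher in αMut1 (4.09), αRes1 (1.28), αRes2 (2.63), αRes3 (4.22) and αRes4 (4.12). It averaged 2.54 ± 1.64 CPM in αMut1 and 0.15 ± 0.0814 CPM in αWT (SD, n = 7 and 8), at 3 to 8 counts per αWT library. AQP9, an aquaglyceroporin, was tested in the β series and fell in βMut-HS3Δ by 2.93 (adjusted p = 3.20e-05, edgeR). It was also called lower in WT-HS3Δ (-1.84, adjusted p = 2.33e-04) and βMut2 (-1.25, adjusted p = 0.00605), and higher in βMut1 (1.07, adjusted p = 0.00418). AQP3 was called higher in βMut-HS3Δ, WT-HS3Δ and βMut2 and not called in βMut1. The highest line mean of AQP9 was 1.07 CPM, in βMut1. The others were 0.516 CPM in βWT, 0.229 in βMut2, 0.139 in WT-HS3Δ and 0.0638 in βMut-HS3Δ. Whether AQP9 would pass the count filter of the β series without βMut1 was not tested, so its calls are given with that limit. AQP10 was higher in βMut2 by 0.59 (adjusted p = 1.63e-05) and in βMut-HS3Δ by 0.53 (adjusted p = 3.93e-05), and fell in αMut2 by 1.00 (adjusted p = 8.99e-04), while αWT itself differed by 0.87 between replicates 5 to 8 and 1 to 4. AQP11 was not called in any line over its unedited line.

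All 24 genes of a list of red cell membrane transport were tested in both series. Over αWT, 8 were called higher and 1 lower in αMut1 (median log2 change 0.27), 3 and 3 in αMut2 (-0.05), 8 and 1 in αRes1 (0.33), 7 and 1 in αRes2 (0.24), 15 and 2 in αRes3 (0.64) and 10 and 4 in αRes4 (0.44). The medians over all genes lay between -0.041 and 0.011. The share of all genes called was 22.8% in αMut1, 16.1% in αMut2, 20.4% in αRes1, 18.7% in αRes2, 39% in αRes3 and 40.5% in αRes4. SLC4A1, which encodes band 3, averaged 161 CPM in αMut1, 13.2 in αMut2, 262 in αRes1, 129 in αRes2, 678 in αRes3 and 340 in αRes4, against 13.5 CPM in αWT. It ran from 91.8 to 439 CPM over the αRes1 libraries and from 8.5 to 18.9 CPM over those of αWT. It was called with log2 changes of 3.58, 4.28, 3.27, 5.66 and 4.67 in αMut1, αRes1, αRes2, αRes3 and αRes4, and at -0.03 in αMut2 (adjusted p = 0.961, edgeR). ABCG2, the urate exporter that carries the Junior blood group, rose in αRes3 by 6.31 (adjusted p = 1.11e-15), SLC2A1, the glucose transporter, by 1.06 (adjusted p = 2.18e-14), and RHD rose in αRes4 by 1.76 (adjusted p = 3.92e-13).

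The α lines also differed in megakaryocyte markers. Their 9 genes summed to 95.1 to 115 CPM in αMut1, 62.5 to 106 in αRes1, 73.3 to 92.3 in αRes2, 155 to 167 in αRes3 and 148 to 186 in αRes4, against 19.5 to 20.5 in αMut2 and 18 to 23.5 in αWT, mostly TUBB1 and THBS1. Of these 9 genes 4 were tested, and 4 were called higher and 0 lower in αMut1 (22.8% of all genes called). The numbers were 0 and 1 in αMut2 (16.1%), 2 and 0 in αRes1 (20.4%) and 2 and 0 in αRes2 (18.7%). They were 3 and 1 in αRes3 (39%) and 4 and 0 in αRes4 (40.5%). ITGA2B averaged 2.71 CPM in αRes3 and 6.22 CPM in αWT. PF4, GP9 and GP1BA were at or near 0. The part of these markers in the levels of CA1 and the transport genes was not tested.

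In the β series, 7 of the 24 transport genes were called higher and 3 lower in βMut1 over βWT, 0 and 4 in βMut2, 6 and 6 in WT-HS3Δ and 9 and 6 in βMut-HS3Δ, with medians of 0.00, -0.15, -0.01 and 0.21 against medians over all genes between -0.029 and 0.02. In WT-HS3Δ 12 of the 24 were called, where 50.2% of all genes were. The share of all genes called was 20.3% in βMut1, 28.7% in βMut2 and 48.1% in βMut-HS3Δ. SLC12A7, a potassium-chloride cotransporter that regulates cell volume, fell in WT-HS3Δ by 4.12 (adjusted p = 1.01e-11, edgeR), and SLC29A1, the nucleoside transporter that carries the Augustine blood group, rose in βMut-HS3Δ by 1.36 (adjusted p = 4.77e-11). SLC4A1 rose by 1.07 in WT-HS3Δ (adjusted p = 3.29e-07) and by 1.84 in βMut-HS3Δ (adjusted p = 3.58e-10).

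Of 11 erythroid regulators, 10 were tested in each series. Over the unedited line, 0 were called higher and 2 lower in αMut1, 0 and 1 in αMut2, 1 and 2 in αRes1, 1 and 1 in αRes2, 3 and 1 in αRes3, 1 and 1 in αRes4, 0 and 1 in βMut1, 0 and 3 in βMut2, 5 and 0 in WT-HS3Δ and 3 and 2 in βMut-HS3Δ. In each HS3-deleted line 5 of 10 were thus called, close to the 50.2% and 48.1% of all genes called in WT-HS3Δ and βMut-HS3Δ, and in the other lines 1 to 4 of 10 were called, where 16.1% to 40.5% of all genes were. In the HS3-deleted lines, where AQP1 and AQP3 were higher, ZFPM1, the cofactor of GATA1, rose by 2.47 in WT-HS3Δ (adjusted p = 3.46e-11, edgeR) and by 1.69 in βMut-HS3Δ (adjusted p = 1.47e-08). KLF1, the erythroid KLF factor, rose there by 1.00 and 1.11 (adjusted p = 4.23e-09 and 2.55e-09). TAL1 rose in βMut-HS3Δ by 0.95 (adjusted p = 4.44e-08) and LMO2 in WT-HS3Δ by 1.05 (adjusted p = 3.85e-09). In αRes3, where CA1 and AQP1 were highest, NFE2 rose by 0.88 (adjusted p = 6.38e-13), KLF1 by 0.64 (adjusted p = 4.59e-05) and ZFPM1 by 1.35 (adjusted p = 2.22e-10). MYB, a factor of immature progenitors, fell by 1.12 in αRes3 (adjusted p = 5.90e-12) and by 1.22 in αRes4 (adjusted p = 9.43e-13). In βMut-HS3Δ, MYB (-0.54, adjusted p = 2.93e-05, edgeR) and RUNX1 (-0.67, adjusted p = 4.87e-04) were called lower. GATA1 was called in neither HS3-deleted line, at 0.30 in WT-HS3Δ and 0.16 in βMut-HS3Δ. The part of these regulators in the levels of the members was not tested.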

How the data were processed

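Poly(A) RNA of 62 libraries was sequenced as paired 51-base reads. Per the labels and the study's methods, the authors trimmed reads with cutadapt (quality 20), aligned them to hg38 with bwa mem, sorted them with SAMtools 1.15.1, marked duplicates with Picard and assigned them to GENCODE 42 genes with featureCounts. The deposited values are raw counts. How strand and reads in several genes were handled is not given in the sources used here. Totals were 4270215 to 48671570 counts.

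Lines were taken from the sample titles. Symbols came from GENCODE 44, which held 62625 of the 62696 identifiers. Counts were fitted with edgeR 4.0.16 (R 4.3.3, TMM, quasi-likelihood test, genes averaging 10 or more counts a library), with 1 fit for the α series, 1 for the β series, 1 for the unedited lines and 1 for the replicate sets. Calls needed a Benjamini-Hochberg adjusted p below 0.05 and an absolute log2 change above 0.5. CPM were scaled by TMM over all libraries, and RPKM used the merged exon length. The fit was tested on simulated data. Alternatives were RLE and upper-quartile scaling, no filter, DESeq2 1.42.0, a replicate block, fewer libraries and leave-one-out. The members and lists were chosen with earlier results of these data known. From each list up to 6 genes with the smallest adjusted p over an unedited line were named. The nearest tested gene on each side of a member, other members left out, and the 3 genes most like it over the lines were also named. Promoters were matched by symbol to RefSeq windows, which held 3 of the 5 members. No pair of libraries agreed within sampling noise (lowest chi-square per gene 1.802). Pairing by replicate number was examined as the correlation r of same-numbered libraries in their deviations from the line means. This r was 0.125 to 0.256 in the 7 pairs of αRes2 over αMut1. It was also positive in every pair of some other comparisons, such as αRes1 over αWT (0.097 to 0.278) and βMut1 over βWT (0.076 to 0.55). Elsewhere it took both signs, as in αMut2 over αWT (-0.35 to 0.214) and WT-HS3Δ over βWT (-0.121 to 0.313). It was negative in every pair of αRes1 over αMut1 (-0.444 to -0.206). In each β comparison r was highest for replicate 1. Within βMut1, βMut2, βMut-HS3Δ and βWT, replicate 1 differed most from the others, with a chi-square per gene of 21.9 to 61.2. Among the other replicates of these lines it was 2.1 to 7.3. The labels do not say what set replicate 1 apart. The main fits did not pair libraries. The other 176 of 238 samples, with other assays, were not analysed here.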

Additional observations from a re-analysis of the deposited data

Results flagged for a closer look

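In groups of 4 to 10 libraries, 4 libraries stood apart from the rest of their line, out of 55 combinations of gene and line tested, and chance gives about 1 in 20. CA2 in αRes2 replicate 3, the shallowest library, was 1.66 CPM, against 0.456 to 0.866 CPM in the other libraries of that line. AQP3 in βMut1 replicate 1 was 16.9 CPM, against 12.9 to 13.5 CPM. SLC14A1 in αMut1 replicate 3 was 0.13 CPM, against 0 to 0.0529 CPM, and in αMut2 replicate 1 it was 0.0277 CPM with the other libraries at 0, and these values rest on 4 counts and 1 count.

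Of 16 differences between effects, 10 had an adjusted p below 0.05 (edgeR). The effect of the HS2 change differed with and without HS3 for CA1 by -0.38 (adjusted p = 0.0114) and for AQP1 by 0.73 (adjusted p = 0.0198). The change over αWT differed between replicates 5 to 8 and 1 to 4 for CA1, AQP1 and AQP3 in αMut1 (1.19, 1.58 and -0.53 on the log2 scale), for CA1, CA2 and AQP3 in αRes1 (0.73, 1.87 and -1.77) and for AQP1 and AQP3 in αRes2 (1.26 and -1.50).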

How the results depend on the processing

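The 292 log2 changes of called members under settings other than leave-one-out included 0 that changed sign and 9 that lost their call, and under leave-one-out the 553 included 0 and 19. Among replicates 1 to 4 the number of members called was 4 in αMut1 over αWT, 4 in αRes2 over αWT, 2 in αRes1 over αMut1 and 1 in αRes2 over αMut1. Among replicates 5 to 8 it was 2 in αRes1 over αMut1 and 2 in αRes2 over αMut1. With only the compared libraries it was 1 in αMut2 over αWT, where CA2 did not reach the count filter, and with no filter 1 in αRes2 over αWT. With the replicate block it was 1 in αRes1 over αMut1 and 2 in the interaction of HS2 and HS3, and the replicate block changed no other number of calls by over 1.5 times. With that block AQP3 in αRes3 over αWT (0.47, adjusted p = 0.0799) and CA2 in αRes3 over αMut1 (-0.92, adjusted p = 0.0927) were not called. When libraries were left out, it was 0 to 1 in αRes1 over αMut1, 1 to 2 in αRes2 over αWT, 2 to 3 in αRes3 over αMut1, αRes3 over αWT, βMut1 over βWT, βMut-HS3Δ over WT-HS3Δ and the set difference of αMut1, 3 to 4 in αWT over βWT and 1 to 2 in the interaction.

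Every change of sign was in a value that was not called. With replicates 1 to 4 these were AQP1 in αMut1 (-0.81) and αRes2 (-0.60), AQP3 in αMut2 (0.12) and CA2 in αRes3 (0.21) over αWT, and CA2 (-0.94) and AQP3 (0.26) in αRes1, CA2 (0.09) and AQP3 (0.31) in αRes2 and AQP1 (0.43) in αRes4 over αMut1. With replicates 5 to 8 they were AQP3 in αRes1 (-0.72) and αRes2 (-0.46) over αWT, and AQP1 in αRes1 (-0.12) and CA1 (-0.42) and AQP1 (-0.12) in αRes2 over αMut1. With the replicate block CA2 became 0.45 in αRes3 over αWT and -0.01 in βMut-HS3Δ over βMut1, and AQP1 -0.07 in αMut1 over αWT. With upper-quartile scaling CA2 became 0.05 and -0.11 in the same comparisons. When libraries were left out, AQP1 ranged over -0.04 to 0.25 in αRes2 over αMut1, -0.10 to 0.19 in αMut1 over αWT and -0.18 to 0.03 in βMut1 over βWT, and CA2 over -0.13 to 0.14 in αRes3 over αWT and -0.22 to 0.26 in βMut-HS3Δ over βMut1. The cause was not tested. Depth limited CA2, at under 60 counts a library outside αRes4, and SLC14A1.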
